A study of Mus musculus with 12 samples.

Results

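RNA was sequenced from mouse ear skin to ask what IL-36γ changed in skin that had also received IL-17A. The comparison set 3 ears injected with IL-17A + IL-36γ against 3 ears injected with IL-17A, which are 6 of the 12 libraries of the series. The other 6 libraries came from ears given IL-36γ or PBS, the solvent, and served here to show what IL-36γ changed without IL-17A. All animals were female C57BL/6 mice, 8 weeks old, with no genetic change, and each injection went into the skin of the ear in a volume of 5 µl. By the labels 1 µg of each recombinant mouse cytokine was given, whereas the methods state that amount per ear, so the dose of each cytokine in the combination is not certain. Ears were taken at day 4. Each group held 5 mice, of which 3 were picked at random for sequencing, so that every library is 1 mouse and the errors below are spreads between mice. A part of the ear was homogenised, so a library can mix epidermis, dermis, fat, cartilage, muscle and blood. If each was given in full, total cytokine and the presence of IL-36γ cannot be told apart by this comparison.

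IL-36γ belongs to the IL-1 family and signals through a receptor made of IL1RL2, which keratinocytes and dendritic cells carry, and the shared chain IL1RAP. The receptor uses MyD88 to activate NF-kB and MAP kinases. IL-17A signals through IL17RA and IL17RC by way of ACT1, stabilises the mRNAs of chemokines and antimicrobial proteins, and is known to act together with other cytokines in keratinocytes, which is the setting of psoriasis.

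The libraries held 25293468 to 34759293 counts assigned to genes, and 19408 of 50684 genes were tested. The defining transcripts of ear skin were present throughout, among them the basal keratin Krt14, which was at 5568 CPM (counts scaled to the depth of the library) or more in each of the 6 libraries compared. IL-17A replicate 1 and PBS replicate 1 stood apart from the other mice of their groups. Mitochondrial genes took 4.30% to 5.66% of the counts in the IL-17A libraries and 3.11% to 3.48% in the IL-17A + IL-36γ libraries. The summed level of 16 skeletal muscle genes was lower in all IL-17A + IL-36γ libraries (1374, 1035 and 4606 CPM) than in the IL-17A libraries (5042, 7233 and 8572 CPM). Both move with the groups, and their part in the results was not tested beyond the values given below with the muscle level as a covariate.

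A gene was called raised or lowered where its adjusted p in edgeR's quasi-likelihood test (Benjamini-Hochberg) was below 0.05 and its log2 fold change exceeded 1 in size. Between IL-17A + IL-36γ and IL-17A, 1737 genes (8.95% of those tested) were called, 865 raised (4.46%) and 872 lowered (4.49%). Of the 1737, 1411 are protein coding. By adjusted p alone 6355 genes (32.7%) passed. Fold changes above 8 were reached by 67 raised and 36 lowered genes. For 1698 of the called genes the 3 libraries of one group all lay beyond those of the other, and over all genes tested the libraries did not overlap in 48.4%. Without IL-17A + IL-36γ replicate 1 or 2 the lowered genes numbered 601 or 586, and without IL-17A replicate 2 they numbered 591. With the muscle level as a covariate, taken as the mean log2 CPM of the muscle genes in each library, 604 were raised and 376 lowered.

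Several of the genes with the highest fold changes encode proteins of the cornified envelope and of antimicrobial defence. Sprr2b (chr3:92316620-92318085, GRCm38), which encodes a small proline-rich protein that is cross-linked into the envelope, stood at 2.18, 0.199 and 4.79 CPM with IL-17A and at 257, 99.7 and 93.0 CPM with IL-17A + IL-36γ. Every combination library was thus far above every IL-17A library, and the log2 fold change was 6.02 ± 0.70 (SE; edgeR adjusted p 0.000238). Defb4 (chr8:19198706-19201545), a mouse relative of human β-defensin 2, went from 1.54, 0.166 and 0.684 CPM to 42.3, 17.8 and 14.1 CPM, a log2 fold change of 4.97 ± 0.76 (edgeR adjusted p 0.000794). Defb3, a second inducible β-defensin, rose by a log2 fold change of 4.87 ± 0.85, and Lpo, the secreted lactoperoxidase, by 4.55 ± 0.70. Alox8, an arachidonate lipoxygenase of the epidermis, was at 11.0, 10.4 and 21.1 CPM with IL-17A and at 445, 198 and 276 CPM with the combination, with no overlap and a log2 fold change of 4.44 ± 0.59. Uox, urate oxidase, rose by 5.73 ± 0.82 and the ETS family transcription factor gene Spdef by 5.49 ± 1.21, the latter from at most 0.121 CPM. The call of Spdef was lost with the muscle covariate (4.39, adjusted p 0.119). The long non-coding RNA U90926 had no count in any IL-17A or PBS library and 1.37, 1.21 and 0.803 CPM with the combination, which is at least 10.1-fold higher against a floor of 3 counts per library. An olfactory receptor gene, Olfr890, rose by 4.46 ± 0.67 at a low level of 1.72 ± 0.532 CPM (SD, n = 3).

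**Figure D1:**
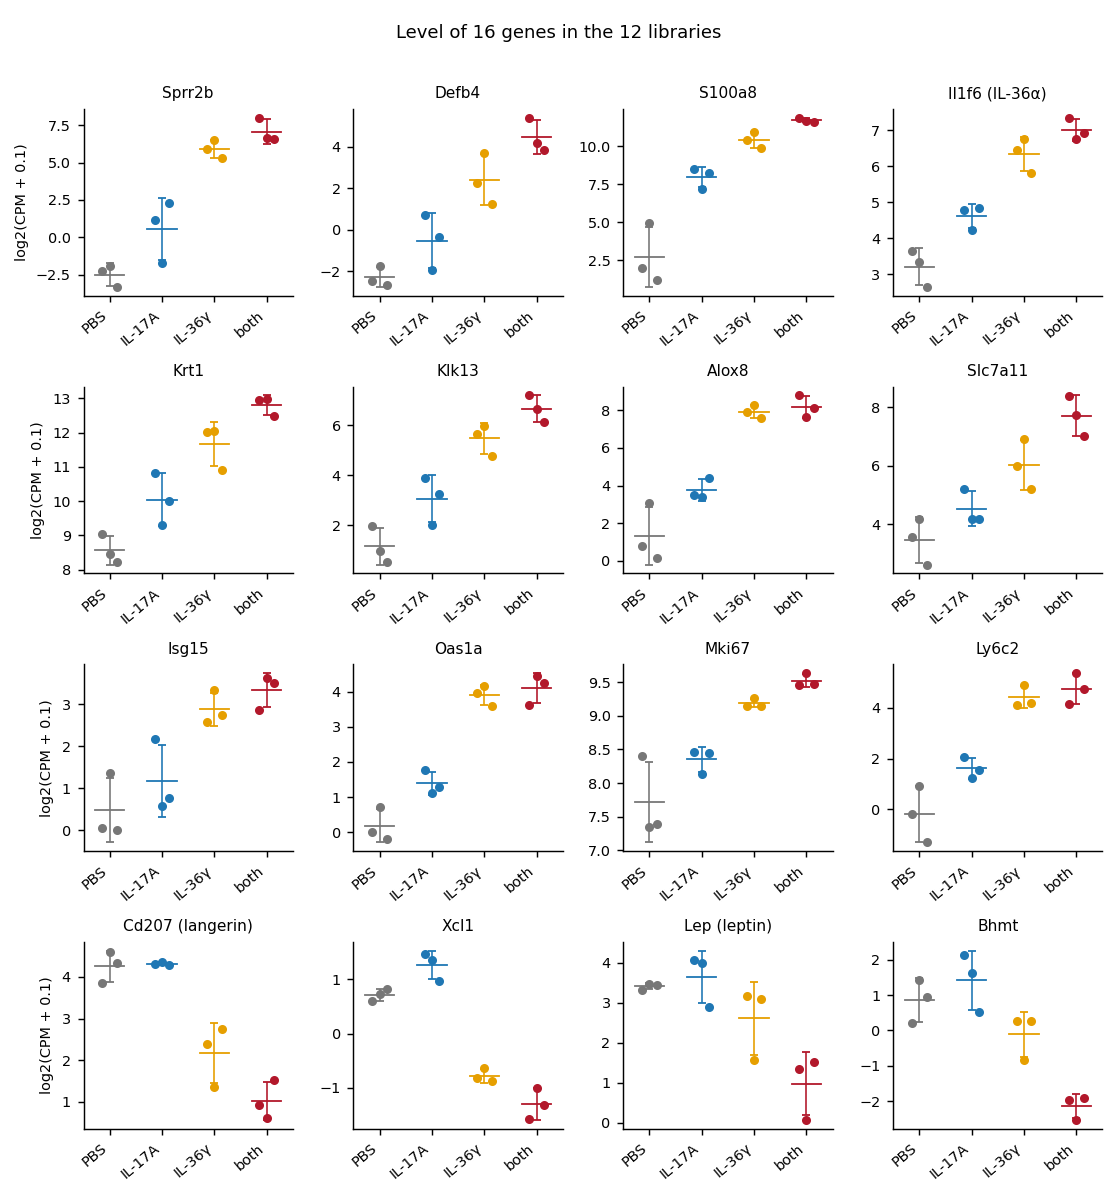
Level of 16 genes in the 12 libraries as log2(CPM + 0.1), with 1 point per library, the group mean as a line and the SD over 3 mice as a bar; "both" is IL-17A + IL-36γ. Sprr2b, Defb4 and S100a8 lie highest with both cytokines and Cd207, Xcl1, Lep and Bhmt lowest, with the 3 libraries of both apart from the 3 of IL-17A in each of these genes.

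The small proline-rich genes, which lie side by side on chromosome 3, were higher in each of the 14 members tested, with log2 fold changes from 0.28 to 6.02 and a median of 2.89, where the median over all genes was -0.004. 8 of the 14 were called raised and none lowered. Sprr2d went from 19.0, 3.22 and 12.4 CPM to 464, 196 and 181 CPM, a log2 fold change of 4.61 ± 0.65 (edgeR adjusted p 0.000524). IL-17A replicate 1 was the highest IL-17A library for Sprr2d, and the count of called members depended on it: without that library 14 of the 15 genes then tested were called, at a median of 4.68. Without IL-17A replicate 2, IL-17A replicate 3 or IL-17A + IL-36γ replicate 1 the count was 5, and with the muscle covariate it was 3. The stefin A genes on chromosome 16, which encode inhibitors of cysteine proteases and are close copies of each other, behaved similarly in direction: 8 of 10 were raised, at a median of 2.61. Stfa1 was at 62.1, 5.35 and 12.8 CPM with IL-17A and at 356, 222 and 224 CPM with the combination. The stefin A count was 10 without IL-17A replicate 1, at a median of 4.68, 4 without IL-17A replicate 2 or without IL-17A + IL-36γ replicate 1, and 5 without IL-17A replicate 3. With the muscle covariate it was 1, at a median of 2.35.

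Keratinocyte differentiation genes did not move as a block. Of 23 genes of terminal differentiation, 8 were raised and 1 was lowered, with a median log2 fold change of 0.49. Krt1, the suprabasal keratin, was at 1812, 631 and 1036 CPM with IL-17A and at 7972, 8074 and 5716 CPM with the combination, so that the groups did not overlap (log2 fold change 2.65 ± 0.40, edgeR adjusted p 0.000741). Rptn, the filaggrin-like repetin, went from 249, 62.8 and 97.1 CPM to 2298, 1381 and 1168 CPM, a log2 fold change of 3.57 ± 0.55. Casp14, a caspase that takes part in filaggrin processing, rose by 1.87, the cornified envelope gene Cnfn by 1.76 and the transglutaminase gene Tgm3 by 1.58. In the opposite direction, Flg2, filaggrin-2, stood at 849.6, 1950.5 and 2166 CPM with IL-17A and at 594, 291 and 828 CPM with the combination (-1.54 ± 0.38, edgeR adjusted p 0.0101), and its call was lost with the muscle covariate (adjusted p 0.127). Late cornified envelope genes also split, with 3 of 21 raised (Lce3a, Lce3b and Lce3c) and 1 lowered. Lce1m fell by 2.64 ± 0.47 on the log2 scale, from 95.0, 235 and 264 CPM to 37.7, 13.4 and 44.0 CPM. Lce3a was at 7.74, 0.299 and 0.443 CPM with IL-17A and at 74.4, 10.3 and 24.0 CPM with the combination (3.68 ± 1.02, edgeR adjusted p 0.0167). No Lce gene was called raised without IL-17A replicate 2, IL-17A replicate 3 or IL-17A + IL-36γ replicate 1, 5 were without PBS replicate 1 or IL-36γ replicate 3, 6 without IL-17A replicate 1, and 8 without IL-17A + IL-36γ replicate 2.

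The keratins of stressed epidermis were high in one IL-17A mouse. Krt16 stood at 729.6, 133 and 141 CPM with IL-17A and at 3816, 2451 and 2308 CPM with the combination, a log2 fold change of 3.10 ± 0.85 (edgeR adjusted p 0.0161). The high value was that of replicate 1, and the call was lost without IL-17A replicate 2 (2.74, adjusted p 0.0611), without IL-17A replicate 3 (2.73, 0.0567) and with the muscle covariate (3.25, 0.0697). Krt6b, at 690.0, 48.7 and 70.4 CPM against 4002, 2775 and 2463 CPM, missed the threshold (3.51 ± 1.32, edgeR adjusted p 0.0589) and passed it without IL-17A replicate 1 (5.72, 0.0162). Krt16, Krt6a and Krt6b have close copies, so their counts are uncertain. The basal and follicular keratins Krt15 and Krt19 were lower with the combination. Krt15 went from 1039.5, 1420.1 and 1216 CPM to 488, 518 and 637 CPM (-1.16 ± 0.15, edgeR adjusted p 0.000353), although with the muscle covariate its change was -0.92. Krt19 went from 2.07, 1.99 and 1.65 CPM to 0.585, 0.658 and 0.602 CPM, a change of -1.62 ± 0.25.

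Extracellular proteases of the epidermis, which cleave the bonds between corneocytes and activate cytokines, were raised in 11 of 16 genes and lowered in none, at a median of 1.98. With the muscle covariate 6 of the 16 were raised, at a median of 1.29. Klk13 (chr7:43712567-43727534), a kallikrein-related peptidase, went from 14.6, 3.99 and 9.45 CPM to 147, 101 and 69.8 CPM (3.51 ± 0.48, edgeR adjusted p 0.00049). Klk6 went from 57.1, 17.1 and 19.7 CPM to 409, 211 and 229.8 CPM, and neither gene had overlapping groups. Klk9 and the serine protease gene Prss27 rose by 2.97 and 3.06. Of 9 Serpinb genes, which encode protease inhibitors, only Serpinb3a and Serpinb3c rose, and 5 of the 9 lay below 0, with a median of -0.018 over the list. Serpinb3a went from 36.4, 20.05 and 37.2 CPM to 314, 229 and 189 CPM (2.97 ± 0.39).

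Antimicrobial proteins were raised in 11 of 18 genes and lowered in 1, at a median of 1.96. S100a8, 1 subunit of the neutrophil and keratinocyte protein calprotectin, stood at 360.0, 148 and 303 CPM with IL-17A and at 3768, 3175 and 3135 CPM with the combination (3.64 ± 0.76, edgeR adjusted p 0.00406). S100a9, the partner subunit, went from 456, 211 and 385 CPM to 6079.7, 4503 and 4341 CPM, a fitted 14.2-fold higher level. Lcn2, which binds bacterial siderophores, went from 19.1, 16.5 and 15.2 CPM to 118, 100.3 and 100.4 CPM with little spread in either group (2.65 ± 0.20, edgeR adjusted p 4.42e-05). Slpi, an inhibitor of neutrophil elastase, rose by 2.58 ± 0.49. The exception was Lyz1, the lysozyme of Paneth cells and macrophages, at 29.3, 28.9 and 41.3 CPM with IL-17A and 9.40, 9.14 and 21.9 CPM with the combination (-1.29 ± 0.31). With the muscle covariate 7 of the 18 were raised and none lowered, Lyz1 having an adjusted p of 0.128.

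The IL-36 genes themselves changed. Of 7 genes of the family tested, 4 were raised and 1 was lowered, and at the same thresholds these calls held in every alternative run. Il1f6, which encodes IL-36α (chr2:24215418-24225702), was at 27.4, 18.6 and 28.4 CPM with IL-17A and at 164, 109 and 121 CPM with the combination (2.41 ± 0.28, edgeR adjusted p 0.000246). Il1f9, the gene of the injected cytokine, stood at 42.5, 38.3 and 43.9 CPM against 183, 99.1 and 127 CPM, which did not overlap (1.72 ± 0.18, edgeR adjusted p 0.000147). Il1f8, encoding IL-36β, rose by 1.43 ± 0.25. Il1f5, which encodes the receptor antagonist IL-36Ra, went from 139, 137 and 175 CPM to 562, 407 and 498 CPM (1.70 ± 0.17). The ligand gene Il1f10, encoding IL-38, went the other way, from 4.58, 8.01 and 9.01 CPM to 2.89, 1.54 and 2.94 CPM (-1.55 ± 0.30, edgeR adjusted p 0.00294). The receptor gene Il1rl2 was at 138, 121 and 105 CPM against 153, 151 and 154 CPM, a difference of 0.33 ± 0.09 that passed the adjusted p (0.0123) and not the fold threshold. For the shared chain Il1rap the difference was -0.16.

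Among the IL-17 and IL-23 genes, 2 of 12 were raised and 1 was lowered. Il22, which encodes a lymphocyte cytokine that acts on keratinocytes, had 0.0376, 0 and 0 CPM with IL-17A and 0.702, 0.476 and 0.301 CPM with the combination (4.90 ± 1.19, edgeR adjusted p 0.00875). It shares sequence with the neighbouring copy Iltifb, which makes its count uncertain, and the call was lost with the muscle covariate (3.43, adjusted p 0.198). Il17c, an epithelial cytokine, rose by 2.78 ± 0.52 and Il17d fell by 1.45 on the log2 scale. Il6 went from 1.16, 1.26 and 0.603 CPM to 1.37, 3.77 and 5.79 CPM (1.84 ± 0.43, edgeR adjusted p 0.00747). No inhibitor or feedback regulator of NF-kB was called among 13 tested, at a median of 0.20.

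The chemokines that act on CXCR2, the main chemokine receptor of neutrophils, were raised in 2 of 5 genes. The count was 4 without IL-17A replicate 1, 1 without IL-17A replicate 2 or IL-17A + IL-36γ replicate 1, and 0 without IL-17A replicate 3 or IL-17A + IL-36γ replicate 3. Cxcl1 (chr5:90891241-90893115) was at 3.04, 7.48 and 4.71 CPM with IL-17A and at 8.82, 9.66 and 22.3 CPM with the combination (1.42 ± 0.39, edgeR adjusted p 0.0167). Its call was lost without IL-17A replicate 1 (1.17, adjusted p 0.053), IL-17A replicate 3 (1.36, 0.0519) or IL-17A + IL-36γ replicate 3 (0.88, 0.0706). Cxcl5 stood at 11.3, 1.73 and 1.25 CPM against 21.6, 9.51 and 8.996 CPM, so that IL-17A replicate 1 overlapped the combination (1.49 ± 0.76, edgeR adjusted p 0.153). Cxcl2 and Cxcl3 had the same high library, and without it Cxcl2, Cxcl3 and Cxcl5 differed by log2 fold changes of 3.56, 4.33 and 3.18 (adjusted p 0.0359, 0.0212 and 0.00791). The mature neutrophil list, 17 genes, had 10 raised and none lowered, at a median of 1.89, and 15 raised without IL-17A replicate 1, at a median of 3.13. As this is bulk tissue, a greater number of cells of a type and more RNA per cell cannot be told apart, here and in what follows. Csf3r, the G-CSF receptor gene, went from 22.8, 7.71 and 12.8 CPM to 102, 52.9 and 73.3 CPM (2.40 ± 0.38, edgeR adjusted p 0.00102). Retnlg, a resistin-like gene of neutrophils, went from 0.977, 0.665 and 0.845 CPM to 10.7, 2.71 and 8.06 CPM and Ly6g, the usual neutrophil surface marker, from 0.150, 0 and 0.121 CPM to 0.858, 0.549 and 0.602 CPM. Both groups of libraries were apart for these genes. The call of Ly6g was lost with the muscle covariate (2.68, adjusted p 0.11), under which 5 of the 17 genes were raised. The list shares S100a8 and S100a9 with the antimicrobial list, and both of these are also expressed by keratinocytes.

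Interferon-stimulated genes rose together. All 29 tested lay above 0, 23 of them called raised and none lowered, with log2 fold changes between 0.82 and 2.77 and a median of 1.58. The count was 20 with the muscle covariate and 27 when IL-17A replicate 1 and PBS replicate 1 were left out. Oas1a, an oligoadenylate synthetase that senses double-stranded RNA, went from 3.31, 2.09 and 2.33 CPM to 12.2, 21.5 and 18.9 CPM (2.77 ± 0.28, edgeR adjusted p 0.000138), although nearly identical copies make its count uncertain. Isg15, a ubiquitin-like modifier, stood at 4.40, 1.40 and 1.61 CPM against 7.22, 12.3 and 11.3 CPM (2.06 ± 0.45, edgeR adjusted p 0.00526). Ifit1, which binds RNA lacking the host cap modification, rose by 1.58 ± 0.31 and Oasl2 by 2.42 ± 0.37. For the guanylate-binding GTPase gene Gbp2 the combination libraries differed widely, at 36.7, 154 and 62.1 CPM, all above the 26.1, 18.3 and 17.1 CPM of IL-17A.

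Promoter sequence upstream of these genes is shown because members of the interferon list moved together. The window searched was the 250 bases before each start in RefSeq (GRCm38.p6), which was matched for 12677 gene symbols. The interferon-stimulated response element was written as GAAA, any 2 bases and GAAA again, and searched on both strands. It was in 13 of 24 windows of the interferon list (54.2%), in 2.78% of the windows of all genes tested, in 9.15% of those of raised genes and in 1.88% of those of lowered genes. This motif was added after the data had been examined. Capitals mark the matches, and TTTC, any 2 bases and TTTC is the same motif on the other strand. The windows shown are Isg15 at chr4:156200855-156200904 on the minus strand, Oas1a at chr5:120907526-120907559 on the minus strand, Ifit1 at chr19:34640784-34640833 on the plus strand and Gbp2 at chr3:142620584-142620633 on the plus strand.
Isg15: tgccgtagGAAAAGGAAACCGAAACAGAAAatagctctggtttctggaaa
Oas1a: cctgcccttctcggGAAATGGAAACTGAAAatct
Ifit1: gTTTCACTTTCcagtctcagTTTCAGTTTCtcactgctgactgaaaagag
Gbp2: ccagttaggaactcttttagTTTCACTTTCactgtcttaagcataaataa

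In the Isg15 window the 3 matches overlap into a single run, whereas Ifit1 has 2 separate matches. For the antimicrobial list a C/EBP motif, written TTGCNNCAA or TTGCNNAA on either strand, was in 8 of 16 windows, against 9.24% of all windows, 15.8% of those of raised and 11.2% of those of lowered genes. The NF-kB motif, GGGA, any 2 bases and TTCC, was in 1.25%, 2.52% and 1.08% of these 3 sets. It was in 0 of the 16 windows of the antimicrobial list. Cxcl1, Cxcl2 and Cxcl3 each held 2 overlapping matches, 1 on each strand, and of these genes only Cxcl1 was called raised. A match describes the letters in the window only, and the windows shown, here and above, were picked among those with a match. Shown are Lcn2 (chr2:32387928-32387975, minus strand) and S100a9 (chr3:90695930-90695971, minus strand) for C/EBP, and Cxcl1 (chr5:90891155-90891204, plus strand) and Cxcl2 (chr5:90903783-90903832, plus strand) for NF-kB.
Lcn2: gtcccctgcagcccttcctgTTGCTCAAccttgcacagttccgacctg
S100a9: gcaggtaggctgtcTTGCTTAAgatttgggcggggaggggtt
Cxcl1: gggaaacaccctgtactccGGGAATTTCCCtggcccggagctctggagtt
Cxcl2: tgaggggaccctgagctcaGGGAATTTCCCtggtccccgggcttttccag

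Genes of mitosis and DNA replication were higher in all 27 members tested, 20 of them called raised and none lowered, at a median of 1.19. Mki67, the proliferation antigen Ki-67, stood at 354, 282 and 349.7 CPM with IL-17A and at 706, 796 and 709 CPM with the combination (1.17 ± 0.23, edgeR adjusted p 0.00285). Top2a, the topoisomerase that untangles replicated chromosomes, went from 221, 185 and 218 CPM to 468, 540.5 and 473 CPM (1.25 ± 0.19), and Plk1, a kinase of mitotic entry, rose by 1.68 ± 0.31. No combination library overlapped an IL-17A library for any of the 27 genes, where 48.4% of all genes tested had no overlap. With the muscle covariate the median was 0.61 and none of the 27 passed the fold threshold, Mki67 being at 0.60 (adjusted p 0.0424). Without IL-17A replicate 1 and PBS replicate 1 the count stayed at 20.

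**Figure D2:**
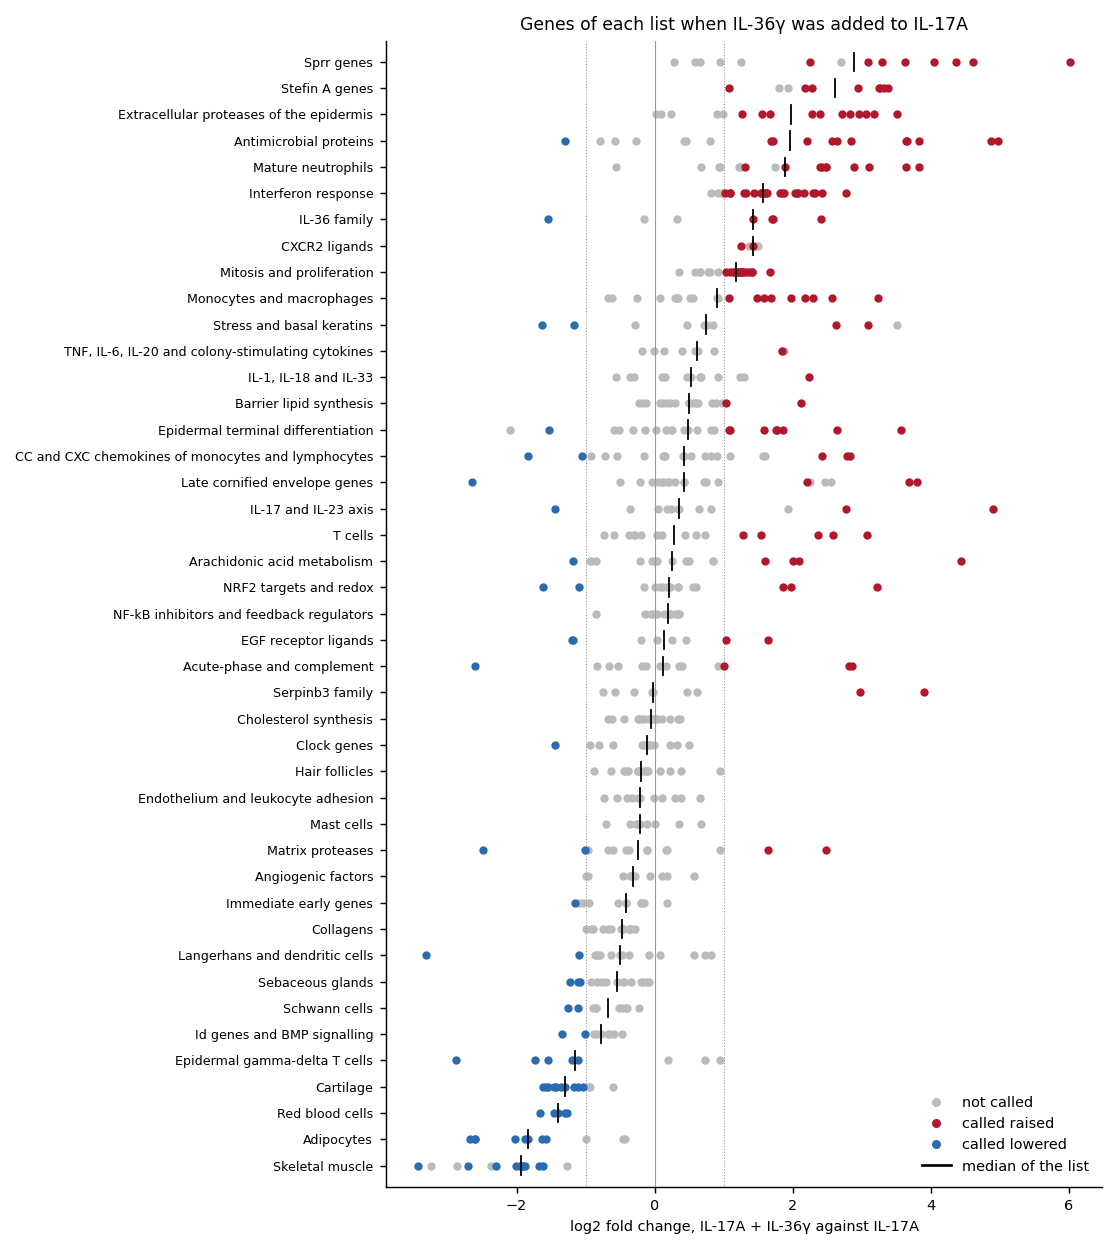
Log2 fold changes of IL-17A + IL-36γ against IL-17A for the members of each gene list with 5 or more genes tested, with 1 point per gene (red raised, blue lowered, grey not called), the median as a black tick and dotted lines at ±1. The Sprr genes have the highest median, 2.89, and the skeletal muscle genes the lowest, -1.94.

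Leukocyte genes moved in different directions. Of 20 monocyte and macrophage genes 9 were raised and none lowered, at a median of 0.91. The count was 6 without IL-17A replicate 2 and 5 with the muscle covariate. Ly6c2, a marker of inflammatory monocytes (chr15:75108158-75111970), went from 4.10, 2.23 and 2.82 CPM to 17.8, 41.6 and 26.8 CPM (3.24 ± 0.45, edgeR adjusted p 0.000489). Adgre1, which encodes the macrophage marker F4/80, went from 69.2, 50.7 and 57.6 CPM to 117, 123 and 136 CPM (1.08 ± 0.12). Cd68, a lysosomal protein of macrophages, was at 51.1, 39.5 and 51.8 CPM against 73.1, 61.6 and 68.0 CPM, a difference of 0.51 below the fold threshold.

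T cell genes were raised in 5 of 16 and lowered in none. Trac, the constant region of the αβ T cell receptor, went from 0.977, 0.864 and 0.563 CPM to 1.91, 2.52 and 2.61 CPM (1.54 ± 0.22, edgeR adjusted p 0.000599). Gzmb, a cytotoxic granule protease, went from 1.35, 0.399 and 0.764 CPM to 4.10, 4.97 and 5.85 CPM and Foxp3, the transcription factor of regulatory T cells, from 0.225, 0.199 and 0.0805 CPM to 0.663, 0.732 and 1.27 CPM. Neither had overlapping groups. Cd8a, a co-receptor of cytotoxic T cells, was at 0.0751, 0.0997 and 0.0402 CPM against 0.897, 0.768 and 0.301 CPM, and its call was lost with the muscle covariate (0.90, adjusted p 0.583). Cd4 and Cd3e did not pass the test, with differences of -0.20 and -0.38.

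The genes of epidermal γδ T cells, the T cells that reside among mouse keratinocytes, were lowered in 5 of 8. The other 3, Klrk1, Il2rb and Cd69, were not called and had differences of 0.20, 0.73 and 0.94. Without IL-17A replicate 1, without IL-17A + IL-36γ replicate 1 and with the muscle covariate 1 of the 8 was raised. Trdv4, the δ chain segment used by these cells (chr14:54074905-54075515), stood at 3.38, 3.26 and 3.34 CPM with IL-17A and at 1.29, 1.02 and 1.10 CPM with the combination (-1.55 ± 0.19, edgeR adjusted p 0.000287). Its partner γ segment gene Tcrg-V5 went from 1.73, 2.19 and 1.17 CPM to 0.429, 0.768 and 0.334 CPM (-1.74 ± 0.33). Xcl1, a chemokine of γδ T cells and NK cells, went from 2.67, 2.46 and 1.85 CPM to 0.234, 0.402 and 0.301 CPM (-2.88 ± 0.24, edgeR adjusted p 6.56e-05). All 3 kept their calls in every alternative run that tested them, the muscle covariate included. Trdc, which all γδ T cells express, fell by 1.10 on the log2 scale, but by 0.97 without IL-17A replicate 2, by 0.98 without IL-17A + IL-36γ replicate 2 and by 0.88 with the covariate.

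Cd207 encodes langerin, the defining lectin of Langerhans cells, the dendritic cells of the epidermis. It stood at 19.8, 20.4 and 19.6 CPM with IL-17A and at 1.79, 1.43 and 2.78 CPM with the combination (chr6:83671215-83677857; -3.31 ± 0.34, edgeR adjusted p 0.000144), which is a fitted 9.90-fold lower level. The list of Langerhans and dendritic cells had 2 of 15 genes lowered. The second was Mfge8, which encodes a protein that binds apoptotic cells, at 123, 119 and 102 CPM against 54.3, 49.9 and 56.8 CPM (-1.09 ± 0.11). Epcam, an adhesion protein of Langerhans cells and of skin epithelium, did not differ beyond its spread (0.08 ± 0.12, edgeR adjusted p 0.638).

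Of 21 chemokines of monocytes and lymphocytes 3 were raised and 2 were lowered, without IL-17A replicate 1 there were 9 raised and 1 lowered, and with the muscle covariate 1 of each. Ccl5, made by T cells and NK cells, went from 0.338, 0.266 and 0.121 CPM to 1.52, 1.43 and 1.07 CPM (2.43 ± 0.32, edgeR adjusted p 0.000387). Cxcl9, an interferon-γ-induced ligand of CXCR3, stood at 1.13, 0.831 and 1.21 CPM against 1.60, 16.7 and 3.54 CPM, and the call was lost without IL-17A + IL-36γ replicate 2 (1.32, adjusted p 0.0814) and without IL-17A replicate 2 (2.66, 0.0579). Ccl27a, a keratinocyte chemokine that attracts skin-homing T cells, went from 7.06, 7.05 and 5.27 CPM to 1.48, 1.50 and 2.44 CPM (-1.83 ± 0.28), although its count is uncertain because of near-identical copies.

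Metabolic and growth-factor genes changed in single members more than as lists. Slc7a11, the cystine importer, went from 37.0, 18.0 and 18.1 CPM to 339, 215 and 128 CPM (3.22 ± 0.53, edgeR adjusted p 0.00112), and was 1 of 3 genes raised among 16 targets of NRF2 and redox genes, beside Gsta4 and Nos2. Duox2 and Duoxa2, which together make the hydrogen peroxide source of epithelia, fell by 1.10 and 1.62 on the log2 scale. Only 1 of the 16 was raised without IL-17A replicate 2 or IL-17A + IL-36γ replicate 1, or with the muscle covariate. None of the 16 was lowered without IL-17A replicate 2 or with the covariate, and 1 was lowered without IL-17A + IL-36γ replicate 1 or replicate 2. Pla2g4e, a calcium-dependent phospholipase or acyltransferase, went from 49.9, 36.9 and 41.3 CPM to 226, 168 and 149.6 CPM (2.09 ± 0.24). Degs2, a ceramide hydroxylase of the barrier, rose by 2.12 ± 0.38. Nrg1, a ligand of ERBB receptors, went from 3.83, 1.89 and 2.05 CPM to 9.13, 8.27 and 6.92 CPM (1.64 ± 0.30). Of the 8 EGF receptor ligands tested, its list, 2 were raised and 2 lowered, Ereg (-1.18) and Btc (-1.20). The acute-phase gene Saa1 went from 0.639, 0.299 and 0.402 CPM to 2.97, 3.62 and 3.11 CPM (2.85 ± 0.35), and Il18rap, an accessory chain of the IL-18 receptor, rose by 2.24 ± 0.37. Of 14 acute-phase and complement genes 3 were raised and 1, Cfd, was lowered (-2.60), at a median of 0.12. None of 18 genes of cholesterol synthesis, 18 of the hair follicle, 11 of the endothelium, 10 angiogenic factors or 9 of mast cells was called. Of 14 clock genes only Npas2 was called, lowered by 1.44 on the log2 scale.

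Among the lowered genes, several with the largest fold changes are of low abundance. P2rx2, a subunit of ATP-gated channels of neurons (chr5:110339812-110343212), stood at 5.03, 7.15 and 6.72 CPM with IL-17A and at 0.312, 0.146 and 0.535 CPM with the combination (-4.21 ± 0.50, edgeR adjusted p 0.000262). H2-M5, a non-classical class I histocompatibility gene, went from 3.91, 4.65 and 2.33 CPM to 0.0780, 0.110 and 0.368 CPM (-4.22 ± 0.66). Bhmt, betaine-homocysteine methyltransferase, went from 4.32, 2.96 and 1.33 CPM to 0.156, 0.0732 and 0.167 CPM (-4.40 ± 0.62), although a related copy makes its count uncertain. F830045P16Rik fell by 4.43 and the imprinted gene Nnat by 3.55 on the log2 scale. These 5 genes kept their calls in every alternative that tested them, unlike Pyy and Cyp2e1. Pyy (-4.34) was at -2.88 with the muscle covariate (edgeR adjusted p 0.133). Cyp2e1 was at -3.61 (edgeR adjusted p 0.0494). Without IL-17A + IL-36γ replicate 1 or 2 Cyp2e1 was at -3.25 (0.138) or -3.03 (0.139), and without IL-17A replicate 1, 2 or 3 at -3.94 (0.0503), -2.52 (0.219) or -3.93 (0.054).

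Markers of the tissues beneath the epidermis made up a part of the lowered genes. Of 16 skeletal muscle genes 11 were lowered, at a median of -1.94, and all 16 lay below 0. Actn3, α-actinin of fast fibres, went from 19.8, 26.7 and 30.7 CPM to 2.69, 1.87 and 7.12 CPM (-2.71 ± 0.66, edgeR adjusted p 0.00901). Myh4, a fast myosin, ranged from 1.24 to 183 CPM within the combination and did not pass the test (-2.87 ± 1.55, edgeR adjusted p 0.177). The list's count was 3 without IL-17A replicate 2, IL-17A replicate 3, IL-17A + IL-36γ replicate 1 or IL-17A + IL-36γ replicate 2, 4 without IL-17A replicate 1, and 7 without PBS replicate 3, IL-36γ replicate 1 or IL-36γ replicate 3. It rose to 14 without PBS replicate 1 and to 16 without IL-17A + IL-36γ replicate 3, at a median of -2.84 in the latter.

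Adipocyte genes were lowered in 8 of 11, at a median of -1.83. Lep, which encodes leptin, stood at 16.5, 15.8 and 7.28 CPM with IL-17A and at 2.46, 0.951 and 2.78 CPM with the combination (-2.68 ± 0.46, edgeR adjusted p 0.00153). Adipoq, encoding adiponectin, went from 49.5, 43.6 and 23.2 CPM to 11.4, 9.33 and 16.7 CPM (-1.63 ± 0.32), and Car3, a carbonic anhydrase abundant in fat and muscle, from 363, 354 and 244 CPM to 70.7, 45.6 and 121 CPM (-2.02 ± 0.34). The 3 genes kept their calls with the muscle covariate, under which 5 of the 11 were lowered. Cartilage genes were lowered in 10 of 13, at a median of -1.30, and in 7 with the covariate. Chad, encoding the cartilage matrix protein chondroadherin, went from 72.0, 79.7 and 63.7 CPM to 22.9, 22.8 and 26.4 CPM (-1.58 ± 0.20, edgeR adjusted p 0.000348), and Hapln1, which links aggrecan to hyaluronan, from 31.5, 26.6 and 14.2 CPM to 6.59, 8.27 and 8.59 CPM (-1.62 ± 0.26).

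Red blood cell genes were lowered in 5 of 5, in 2 without IL-17A replicate 2, in 3 without IL-17A + IL-36γ replicate 1 and in none with the muscle covariate. Hbb-bs, a β-globin gene with a near-identical neighbour, was at 80.5, 198 and 129 CPM against 39.3, 49.9 and 75.6 CPM. Collagen genes lay below 0 in all 14 tested, at a median of -0.47, and none was called. Schwann cell genes were lowered in 2 of 10, in 1 without IL-17A replicate 2 or IL-17A + IL-36γ replicate 1 and in none with the muscle covariate. Sebaceous gland genes were lowered in 3 of 15, and in 1 without IL-17A replicate 1. The part that tissue composition, and the muscle content of the piece of ear taken, had in these results was not tested beyond the covariate values given.

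**Figure D3:**
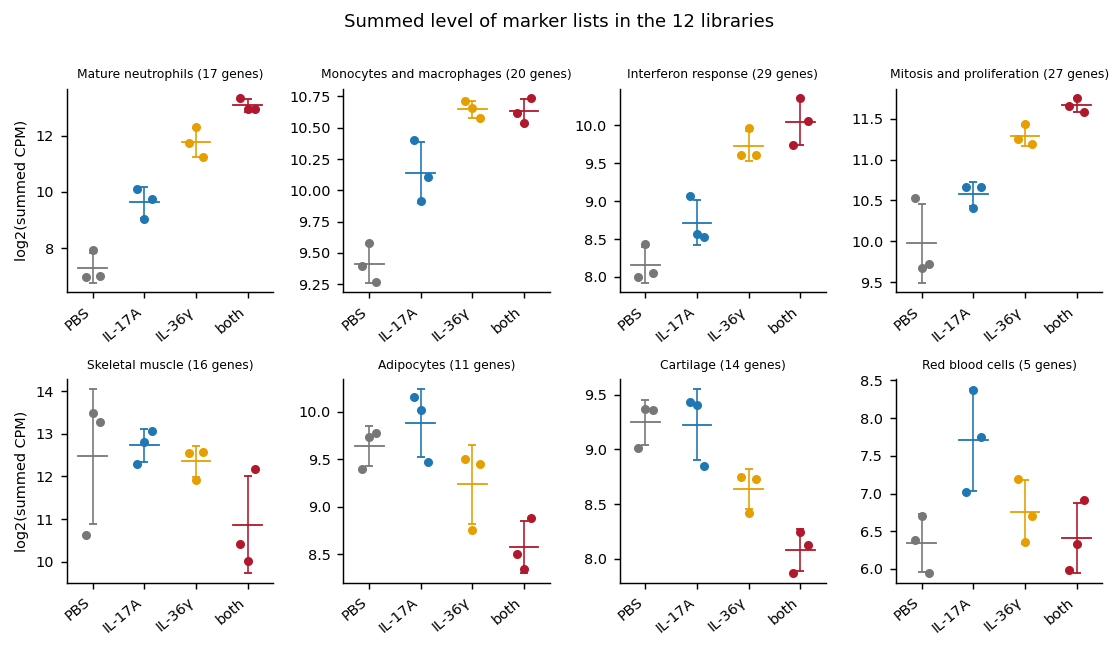
Log2 of the summed CPM of 8 marker lists in the 12 libraries, with 1 point per mouse. The neutrophil sum is 7799 to 10293 CPM with both cytokines and 526.5 to 1090 CPM with IL-17A, most of it from S100a8 and S100a9 (3768 and 6079.7 CPM of the 10293), which keratinocytes also express, and the muscle sum of PBS replicate 1, 1589 CPM, lies far below the other PBS libraries.

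To show what IL-36γ changed without IL-17A, IL-36γ was compared with PBS in the other 6 libraries, which belong to the same fit. There, 1377 genes were called (7.1% of those tested), 992 raised (5.11%) and 385 lowered (1.98%). Scaled by library size alone the same comparison had 822 raised and 698 lowered, as that scaling moved the median of all genes to -0.165. The count of lowered genes also depended on single libraries. Without PBS replicate 1 this comparison had 1103 raised and 696 lowered, and without PBS replicate 3 it had 813 and 234. The overlaps that follow are those of the main fit. Both comparisons raised 561 genes, which are 64.9% of the 865 and 56.6% of the 992. They lowered 130 in common, 14.9% of the 872 and 33.8% of the 385. The 865 raised genes had a median log2 fold change of 1.38 with IL-17A present and 1.40 without it, whereas the 872 lowered genes had medians of -1.41 and -0.53. As the 2 lists were chosen on the first of each pair of values, the second alone is independent of the choice. Opposite calls were found for 5 genes, Gm38362 and Gm48335 (raised with IL-17A and lowered without) and Clca3a2, Gm25911 and Myocd (the reverse).

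By list, the medians side by side were 1.58 with IL-17A and 1.75 without for the interferon-stimulated genes and 1.19 and 1.48 for the mitosis genes. For the Sprr genes they were 2.89 and 4.51, and for the mature neutrophil genes 1.89 and 2.70, on log2 scales that start from different levels: S100a8 averaged 12.5 ± 16.4 CPM (SD, n = 3) with PBS and 270.4 ± 109.9 CPM with IL-17A. For the tissue lists they were -1.83 and -0.47 for adipocytes, -1.94 and -0.35 for skeletal muscle and -1.40 and 0.37 for red blood cells. Whether these medians differ was not tested, and the muscle sum of PBS replicate 1 enters the second value of each pair.

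**Figure D4:**
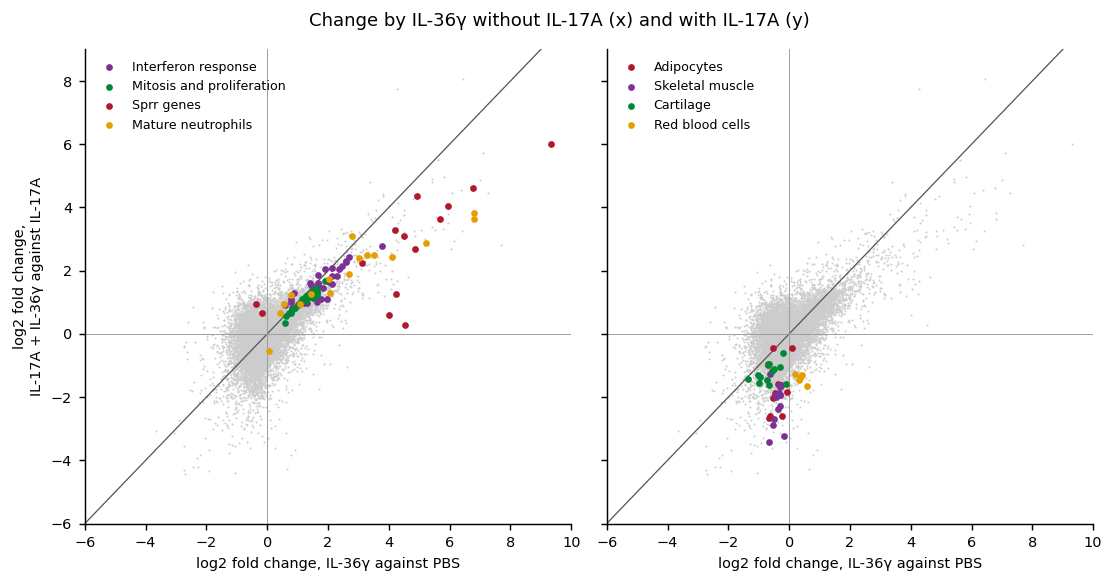
Log2 fold change by IL-36γ without IL-17A (IL-36γ against PBS, horizontal) and with it (IL-17A + IL-36γ against IL-17A, vertical), with all tested genes in grey, members of 4 lists coloured in each panel and the diagonal of equal change. The interferon and mitosis genes lie along the diagonal, and the adipocyte, muscle, cartilage and red blood cell genes mostly below it.

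The difference between the 2 changes was tested for each gene as an interaction. At an adjusted p below 0.05, with no threshold on size, 107 genes were called (0.551% of those tested), 25 with a higher change in the presence of IL-17A (0.129%) and 82 with a lower one (0.423%), and 4373 had an unadjusted p below 0.05. The count depended strongly on single libraries: it was 1 without IL-36γ replicate 1, 2 without IL-17A + IL-36γ replicate 1, 3 without IL-36γ replicate 3 or IL-17A + IL-36γ replicate 2, 4 without PBS replicate 3, 8 without IL-17A replicate 2, 10 without PBS replicate 2, 23 without IL-17A replicate 1, 26 without IL-17A replicate 3, 226 without IL-36γ replicate 2 and 1534 without PBS replicate 1. With library size scaling it was 3.

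Saa3, an acute-phase serum amyloid gene (chr7:46711998-46715700), had the lowest interaction value of the genes named. It stood at 0.830, 0.934 and 0.364 CPM with PBS, at 141, 168 and 139.7 CPM with IL-36γ, at 30.4, 11.1 and 20.4 CPM with IL-17A and at 135, 98.1 and 202 CPM with both. The libraries with both overlapped those with IL-36γ alone. The change by IL-36γ was 7.70 ± 0.47 without IL-17A and 2.82 ± 0.34 with it, an interaction of -4.88 ± 0.56 (edgeR adjusted p 0.0122). Fos, an immediate early transcription factor gene, had 152 ± 11.0 CPM with IL-36γ and 24.5 ± 4.10 CPM with PBS, and 56.6, 247 and 222 CPM with IL-17A against 31.6, 92.9 and 131 CPM with both. IL-36γ thus changed it by 2.64 ± 0.53 without IL-17A and by -1.04 ± 0.50 with it (edgeR adjusted p 0.0498 for the interaction), and the groups with IL-17A overlapped. The scavenger receptor gene Marco and the chloride channel accessory gene Clca3a2 had interactions of -2.46 ± 0.37 and -2.31 ± 0.44. Clca3a2 stood at 343, 822 and 537 CPM with PBS, 1464, 1012 and 1258.5 CPM with IL-36γ, 1103, 1284 and 1771 CPM with IL-17A and 489, 488 and 856 CPM with both, so that the level with both cytokines overlapped that with PBS and was below that with either cytokine alone.

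Some further immediate early genes went the way of Fos. Of 11 tested, 4 were called for interaction, all below 0, where 0.423% of all genes tested were. They are Fos, Egr1 (-1.97), Junb (-1.26) and Ier2 (-1.15), which neurons, keratinocytes and most other cells switch on within minutes of a stimulus. Summed over the list, the IL-17A libraries stood at 472, 986 and 853 CPM, so replicate 1 lay apart. The libraries with both stood at 436, 532 and 673 CPM. As given above, the count of interactions depended strongly on single libraries. Among the monocyte and macrophage genes, Adgre1 (-0.99), the CSF-1 receptor gene Csf1r (-0.63) and Marco were called, and among the antimicrobial genes Lcn2 (-1.62), the macrophage lysozyme Lyz2 (-0.99) and Rnase4 (-0.78). Of the clock genes, Arntl was at -0.99 and Per2 and Per3 were at 1.04 and 0.88. Cd4, which was not called between IL-17A + IL-36γ and IL-17A, had a value of -1.33, with 5.20 ± 0.829 CPM with PBS and 11.4 ± 0.754 CPM with IL-36γ. The mean of Cd4 was 9.23 ± 0.654 CPM with IL-17A and 8.05 ± 0.801 CPM with both.

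Krt19 had an interaction of -1.81 ± 0.33 and the cartilage gene Chad one of -1.47 ± 0.28 (edgeR adjusted p 0.0475 for each). Id3, an inhibitor of basic helix-loop-helix factors, was at 42.4 ± 1.52 CPM with PBS, 54.7 ± 3.27 CPM with IL-36γ, 68.7 ± 7.74 CPM with IL-17A and 40.3 ± 6.28 CPM with both, an interaction of -1.14 ± 0.16 (edgeR adjusted p 0.0242). The highest positive interactions were of predicted genes at low levels. Gm44102 had 1.62 ± 0.0952 CPM with PBS, 0.918 ± 0.107 CPM with IL-36γ, 0.657 ± 0.101 CPM with IL-17A and 1.38 ± 0.118 CPM with both (1.89 ± 0.26, edgeR adjusted p 0.0242). Gm38241 had the same order of groups, at 1.52, 0.862, 0.548 and 1.36 CPM. On the same strand Gm44102 overlaps Frmd4b and Gm38241 overlaps Arfip1, which makes their counts uncertain. No gene of the Sprr, stefin A, interferon, mitosis, neutrophil or adipocyte lists was called for interaction, where 0.551% of all genes were. In that order the median interactions of the lists were -1.96, -1.87, -0.27, -0.22, -0.63 and -1.41, and -0.07 over all genes. Whether the lists differ from all genes in this was not tested.

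**Figure D5:**
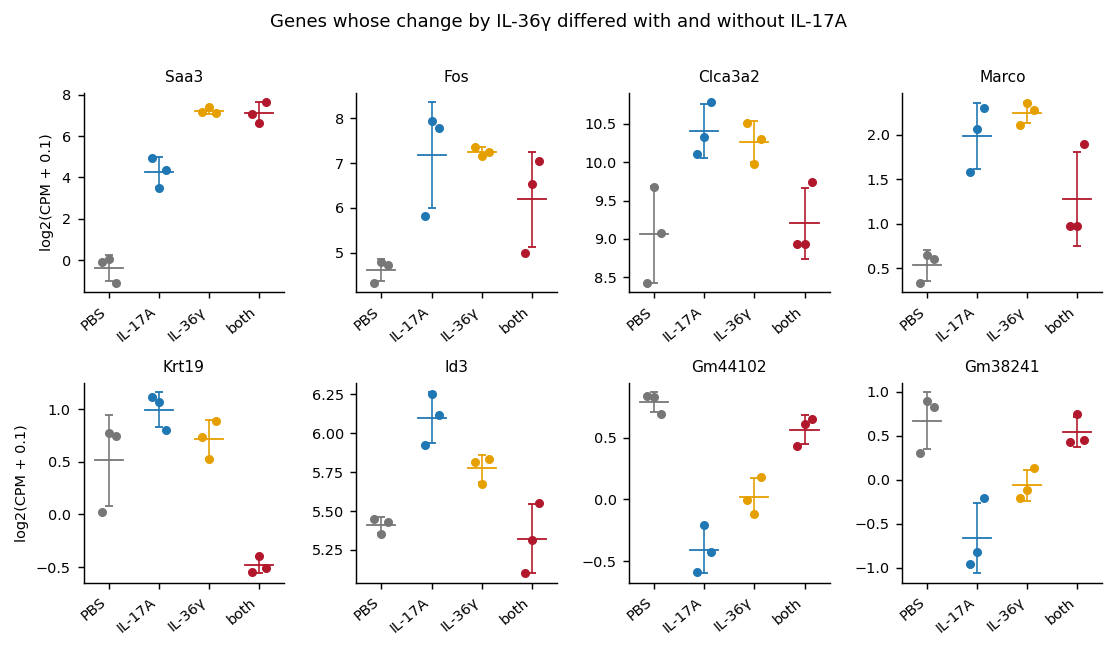
Level of 8 genes called for interaction in the 12 libraries as log2(CPM + 0.1), with 1 point per library, the group mean as a line and the SD over 3 mice as a bar; "both" is IL-17A + IL-36γ. Saa3 is near 0 in CPM only with PBS, Fos, Clca3a2, Marco and Id3 have higher means with either cytokine than with PBS and lower means again with both, and Gm44102 and Gm38241 show the opposite order.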

How the data were processed

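Total RNA of a part of each ear was made into stranded total RNA libraries, and the deposited table held the raw counts per gene that the authors made. Their processing notes name bcl2fastq, FastQC, STAR 2.5.2b, featureCounts of Subread 1.5.1, DESeq2 1.30.0 and the build mm10. The strand setting and the annotation release are not given in the sources used here. The deposited tables of comparisons (mean normalised counts, log2 fold changes and p-values) were not used.

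Symbols came from GENCODE vM21 for 50460 of 50684 genes, and 16630 had no count. Genes were filtered by filterByExpr (minimum count 10), scaled by TMM and fitted with edgeR 4.0.16 in R 4.3.3, in 1 fit of all 12 libraries with a mean per group. The common biological coefficient of variation was 14.22%. CPM are TMM-scaled, ± is the SD over 3 mice for levels and the SE for log2 fold changes. The fit was tested on simulated data. Replicate numbers did not pair the 2 groups (correlations of 0.127, 0.0056 and 0.024 between IL-17A and IL-17A + IL-36γ), so no block was used.

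Genes were named by a rule: the 10 called genes with the highest and the 10 with the lowest fold change, with groups not overlapping and a mean of at least 1 CPM in the higher group, then key members of the gene lists with up to 4 further called members each, and the 5 genes of each direction with the greatest interaction. Others, among them Lyz1, Flg2, the further list members with an interaction and the 5 genes with opposite calls, were named after their values were seen. The comparison and the lists were chosen with earlier results of these data known. A gene's uncertainty was judged by the share of its 76-base windows found in another gene. For predicted genes with an interaction it was also judged by a gene that overlaps them on the same strand. Alternatives were other scalings, filters, thresholds, DESeq2 1.42.0, the 2 groups alone, a replicate block and each library left out. Other thresholds were applied to the counts of called genes, not to whether a single gene kept its call. A gene counts as keeping its call where every setting that tested it had the call. A muscle covariate, and leaving out PBS replicate 1 with IL-17A replicate 1, were added after the data were examined. The covariate was the mean log2 CPM of the genes of the skeletal muscle list in each library.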

Additional observations from a re-analysis of the deposited data

Results flagged for a closer look

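In the main fit of all 12 libraries, the edgeR interaction test called the effect of IL-36γ different with and without IL-17A in 107 genes. The 5 genes with the greatest interaction in each direction are given here. Only 1 gene in all was called without IL-36γ replicate 1, and 3 with library size scaling. Most of the calls below were therefore lost in those settings. Below 0 on the log2 scale, Saa3 was at -4.88, Fos at -3.67, Gm25911 at -3.45, Marco at -2.46 and Clca3a2 at -2.31. Above 0, Gm38241 was at 2.14, Gm44102 at 1.89, Gm28373 at 1.87, F730311O21Rik at 1.50 and Gm26534 at 1.50. Of these, Fos and Marco were not called in IL-17A + IL-36γ against IL-17A (edgeR adjusted p 0.132 and 0.0661). Gm38241, Gm44102 and Gm28373 overlap other genes on the same strand, which makes their counts uncertain.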

How the results depend on the processing

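Of the 179 genes named and called, 90 kept the call in each alternative setting, up to 23, that tested them. Over the 179 genes there were 4059 values, and 267 of these lost the call. A gene that a filter removed has no value in that setting. Direction was reversed in 2 muscle genes with the muscle level as a covariate, Myh4 (1.34) and Tnnt3 (0.022). As the covariate is the mean of the muscle list itself, it takes out most of the change of these genes by construction. That covariate gave 980 genes called, 376 lowered, 337 raised in both comparisons and 774 for interaction. With no fold threshold 6355 were called (2925 raised, 3430 lowered) and 5519 for IL-36γ against PBS, and with a log2 threshold of 2 these were 340 (194 and 146) and 313. The interaction count was 38 with RLE scaling, 3 with library size, 462 with no filter, 1863 with DESeq2, 609 without PBS replicate 1 and IL-17A replicate 1, 49 with a log2 value above 1 in addition, and 1 to 1534 with single libraries left out. The cause was not tested. With single libraries left out, 700 to 1020 genes were raised and 586 to 1076 lowered.

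With a replicate block 888 genes were raised and 903 lowered, 1690 of the 1737 calls being kept, and the interaction count was 883, including all 107. Same-numbered libraries of IL-17A and IL-17A + IL-36γ, or of PBS and IL-36γ, did not all correlate, whereas those of IL-36γ and IL-17A + IL-36γ did (0.128, 0.188 and 0.240). Krt6b passed the threshold under the block.

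With 3 mice a group, genes at a few counts such as Il22, Cd8a and Foxp3 carry the greatest counting error.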

Other observations

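Several genes outside the lists were picked after their values had been seen. Gzma, a granzyme of NK and cytotoxic T cells, stood at 0.263, 0.133 and 0.0804 CPM with IL-17A and at 2.54, 2.56 and 1.30 CPM with IL-17A + IL-36γ (3.70 ± 0.55, edgeR adjusted p 0.000717). Ncr1, which encodes the NK cell receptor NKp46, went from 0.0751, 0.0665 and 0.0804 CPM to 1.05, 1.57 and 0.870 CPM (3.91 ± 0.69), and Ctla4, an inhibitory receptor of T cells, rose by 1.56 ± 0.29. Gzma and Ctla4 kept their calls in every alternative that tested them, and Ncr1 lost its call with the muscle covariate. Zbp1, a sensor of Z-form nucleic acids, rose by 2.42 ± 0.49. Slfn4 was at 2.685 ± 0.80 (edgeR adjusted p 0.0238) and Retnla at -2.70 ± 0.84 (edgeR adjusted p 0.0287). Slfn4 and Retnla each lost the call in 5 alternatives, the muscle covariate among them.

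The connexin genes Gjb2 and Gjb6, whose products form gap junctions between keratinocytes, rose by 2.32 ± 0.43 and 2.44 ± 0.44. Gjb2 went from 49.8, 22.0 and 24.1 CPM to 226, 133 and 120.0 CPM. Mgl2, a lectin of dermal dendritic cells and macrophages, stood at 47.4, 48.5 and 44.9 CPM with IL-17A and at 6.44, 5.34 and 14.1 CPM with IL-17A + IL-36γ (-2.44 ± 0.34, edgeR adjusted p 0.000513), with no overlap. Nos1, neuronal nitric oxide synthase, fell by 2.47 on the log2 scale. Both kept their calls in every alternative that tested them, 23 for Mgl2 and 22 for Nos1, the muscle covariate included.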
